A study of Mus musculus with 13 samples.

Results

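The genes described here are the fatty acid elongases and desaturases of interscapular brown adipose tissue (iBAT): Elovl1, Elovl3, Elovl4, Elovl5, Elovl6, Scd1, Scd2, Fads1, Fads2 and Fads3. These 10 genes, of 42416 gene identifiers counted, were chosen by family and by their CPM (read counts scaled to the size of each library) in the 2 genotypes, with Elovl3 already seen to be lower and Fads1 higher in one of them. The study asked how loss of the receptor tyrosine kinase AXL from adipocytes affects brown fat in mice fed a high-fat diet (HFD). Bulk RNA of iBAT, poly-A enriched per the labels but depleted of ribosomal RNA per the study's methods, was sequenced from 8 libraries labelled iFAXLKO and 5 labelled WT, with 22437277 to 32595083 counts per library. All mice carried floxed Axl (loxP-Axl-loxP), were littermate females per the study, were kept at room temperature on HFD, and were given tamoxifen at intervals of 3 weeks, on 2 consecutive days each time per the study's methods. iFAXLKO mice also carried the Cre recombinase (Cre+), which per the study's methods is a tamoxifen-inducible CreERT2 under the adiponectin promoter and so acts in adipocytes only, whereas WT mice lacked it (Cre-). The age of the sequenced mice is not given in the labels.

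Axl counts did not fall in the 8 iFAXLKO libraries, so genotype is used below as a label. Its level was 33.2 ± 6.17 CPM (SD, n = 8) in iFAXLKO and 27.8 ± 3.83 CPM (n = 5) in WT, a log2 fold change of 0.25 (SE 0.13) with an adjusted p of 0.699 in edgeR's quasi-likelihood test. Non-adipocyte cells of the depot keep Axl, and counts of single exons were not analysed here. The labelled tissue was matched by its markers: the summed level of 8 brown adipocyte markers, among them Ucp1, Cidea and Cox8b, was 7349 to 11359 CPM in iFAXLKO and 9149 to 13805 CPM in WT. Only 2 of the 8, Ebf2 and Prdm16, were higher on average in iFAXLKO, and Ucp1, Cidea and Cox8b were lower. The sum of 8 fibroblast markers, among them Pdgfra, Dcn and Col1a1, was 1554 to 2189.8 CPM in iFAXLKO and 1087 to 1641 CPM in WT, with 8 of 8 markers higher on average and 6 of 8 iFAXLKO libraries above every WT library. The 6 macrophage markers, such as Adgre1 and Csf1r, summed to 108 to 204 CPM against 88 to 129 CPM, with 6 of 6 higher on average. The 8 skeletal muscle markers, such as Acta1 and Ckm, ranged from 2.43 to 3978 CPM in iFAXLKO and from 15.6 to 2774 CPM in WT. White adipocyte (79.7 to 158 CPM in iFAXLKO, 41.0 to 189.7 CPM in WT), Schwann cell (81.6 to 104 and 79.1 to 103 CPM), endothelial (839 to 1244 and 669.7 to 1059.7 CPM) and keratinocyte or sebaceous sums (4.98 to 12.7 and 3.65 to 6.62 CPM) overlapped between the groups, as did those above. Of the last list Awat1 was at 0 in every library. Higher on average in iFAXLKO were 5 of 5 white adipocyte markers found, 8 of 8 Schwann cell and 5 of 6 endothelial markers. So were 5 of 8 keratinocyte or sebaceous markers and 1 of 8 muscle markers.

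Elongases of the Elovl family add carbons from malonyl-CoA to an acyl-CoA chain in the endoplasmic reticulum. They carry out the condensing step, and reductases and a dehydratase complete the cycle. Desaturases insert double bonds with electrons passed on by cytochrome b5. The Scd enzymes make monounsaturated from saturated acyl-CoAs, and Fads1 and Fads2 make the long polyunsaturated chains. In brown fat these enzymes shape the acyl chains of the lipid droplets and membranes, and Elovl3 has long been known as an elongase of this tissue that is induced by cold.

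Clustered histidines hold the iron of the desaturases and form part of the active site of the elongases. The coding sequence around one such H-x-x-H-H box is shown because it is what the members share and because it shows where reads of near-identical copies cannot be assigned. In each line below, the capitals mark the 15 bases that encode the box and 15 coding bases flank it on either side (GENCODE transcripts, build GRCm38). The 5 elongases carried 1 such box each. It lay at chr4:118431454-118431468 (plus strand, exon 6 of 8) in Elovl1, at chr19:46134422-46134436 (plus strand, exon 4 of 4) in Elovl3, at chr9:83785090-83785104 (minus strand, exon 4 of 6) in Elovl4, at chr9:77976850-77976864 (plus strand, exon 5 of 8) in Elovl5 and at chr3:129633107-129633121 (plus strand, exon 5 of 5) in Elovl6.
Elovl1: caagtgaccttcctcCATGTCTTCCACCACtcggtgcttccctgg
Elovl3: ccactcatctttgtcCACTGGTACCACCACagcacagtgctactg
Elovl4: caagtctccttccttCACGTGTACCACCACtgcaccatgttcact
Elovl5: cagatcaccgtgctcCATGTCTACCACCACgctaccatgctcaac
Elovl6: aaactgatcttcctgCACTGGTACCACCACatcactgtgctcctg
Elovl3 and Elovl6 have the same 15 bases in the box, while their coding sequences as a whole were 58.0% identical. No pair of elongases shared a run of 50 bases, so reads of these genes can be told apart at that length.

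For the stearoyl-CoA desaturases, the 2 boxes of Scd1 (at chr19:44401857-44401871 in exon 4 and chr19:44398093-44398107 in exon 6 of 6, minus strand) and of Scd2 (at chr19:44299636-44299650 in exon 4 and chr19:44303012-44303026 in exon 6 of 6, plus strand) are given, since these genes are the closest copies among the members.
Scd1 box A: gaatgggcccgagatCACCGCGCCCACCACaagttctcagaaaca
Scd2 box A: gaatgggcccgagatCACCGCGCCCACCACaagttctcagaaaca
Scd1 box B: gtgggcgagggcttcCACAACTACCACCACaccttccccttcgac
Scd2 box B: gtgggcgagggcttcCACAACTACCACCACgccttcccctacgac
All 45 bases printed for the box A stretch are the same in Scd1 and Scd2, and the box B stretches differ after the capitals. The coding sequences were 89.6% identical, with a longest shared run of 147 bases. Windows of 50 bases found in both genes made up 3.03% of the windows of the Scd1 transcript and 2.68% of those of Scd2, and with even coverage that share of Scd1 would come to 239.9 CPM in iFAXLKO and 242 CPM in WT. These values exceed the mean Scd2 level, 185 CPM in iFAXLKO and 199.7 CPM in WT. How reads that match both genes were counted is not given in the sources used here, so Scd2 counts are uncertain as a whole. Scd3 shared a larger part, 3.49% of the Scd1 windows, but had at most 5 counts in every library except WT replicate 3, with 42. How many shared reads were counted for Scd2 was not tested. Scd2 was 1.64% to 3.25% of Scd1 in CPM, depending on the library.

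For the fatty acid desaturases, the box that aligns in all 3 genes is shown: chr19:10186785-10186799 in Fads1 (plus strand), chr19:10082646-10082660 in Fads2 (minus strand) and chr19:10054257-10054271 in Fads3 (plus strand), each in exon 5 of 12.
Fads1: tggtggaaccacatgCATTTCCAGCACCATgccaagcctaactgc
Fads2: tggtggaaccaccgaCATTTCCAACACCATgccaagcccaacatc
Fads3: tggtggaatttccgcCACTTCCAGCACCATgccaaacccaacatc
The 3 Fads genes sit side by side on chromosome 19, with 2.7 kb between Fads3 and Fads2 and 81.1 kb between Fads2 and Fads1. Their longest shared run was 54 bases, between Fads2 and Fads3. Scd2 and Scd1 lie on the same chromosome with Scd4 between them, and Elovl3 lies 1724.0 kb beyond Scd1.

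Scaled by exon length, Scd1 was by far the most abundant member, Elovl6 and Elovl3 came next, and Elovl4 was lowest (plot of length-scaled levels). Mean levels over all 13 libraries were 1623 ± 846 CPM per kb (SD) for Scd1, 89.5 ± 15.7 for Elovl6, 78.5 ± 27.5 for Elovl3, 34.9 ± 17.6 for Scd2 and 30.4 ± 5.81 for Elovl5. The other members were lower, at 5.17 ± 1.15 CPM per kb for Fads3, 4.84 ± 0.579 for Elovl1, 3.71 ± 0.558 for Fads1, 3.16 ± 0.284 for Fads2 and 1.56 ± 0.384 for Elovl4. Scd1 alone took 0.257% to 1.5% of all counts of a library.

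Neighbours in this order were compared within libraries by an exact paired permutation test (2-sided, smallest possible p = 0.000244), with adjustment over the 9 neighbour pairs. In 6 of the 9 pairs the difference passed the limit. Scd1 was 16.1-fold above Elovl6 (geometric mean ratio, 13 of 13 libraries, adjusted exact p = 0.000732), and Elovl5 was 5.94-fold above Fads3 (13 of 13 libraries, adjusted exact p = 0.000732). Elovl3 was 2.43-fold above Scd2 (12 of 13 libraries, adjusted exact p = 0.00176), Elovl1 1.31-fold above Fads1 (12 of 13, adjusted exact p = 0.0011) and Fads2 2.08-fold above Elovl4 (13 of 13, adjusted exact p = 0.000732). Fads1 was 1.16-fold above Fads2 (12 of 13 libraries, adjusted exact p = 0.0022). These p-values describe agreement between libraries only, and each ratio also depends on the exon length used. That length was all exons of a gene combined, 4812 bases for Fads1 and 3295 for Fads2. Their longest transcripts have 3460 and 3150 bases. Elovl6 and Elovl3 did not differ beyond their spread (log2 difference 0.26 ± 0.54 SD, adjusted exact p = 0.138), nor did Scd2 and Elovl5 (0.01 ± 0.82, adjusted exact p = 0.954) or Fads3 and Elovl1 (0.07 ± 0.45, adjusted exact p = 0.65). Within WT, Elovl3 stood at 103 ± 12.7 CPM per kb and Elovl6 at 92.1 ± 20.7, whereas in iFAXLKO Elovl3 stood at 63.4 ± 23.0 and Elovl6 at 87.9 ± 13.1. Without WT replicate 3, 7 of the 9 pairs passed.

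**Figure D1:**
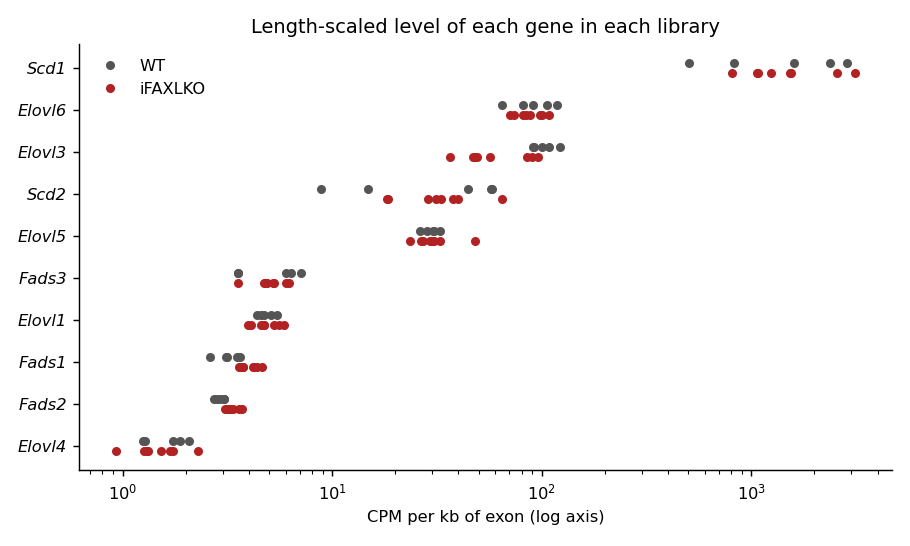
Level of each gene in CPM per kb of exon (log axis), 1 point per library, WT in grey and iFAXLKO in red. Scd1 lies above every other gene in all 13 libraries, and Elovl3 is the gene whose red points reach furthest below the grey ones.

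Of the elongases, Elovl3, which lengthens saturated and monounsaturated chains, was the member with the largest difference between the labelled genotypes (plot of CPM by library). In WT it stood at 241, 197, 213, 179.9 and 182 CPM, and in iFAXLKO at 177, 112, 189, 94.9, 168, 92.7, 96.5 and 72.2 CPM. Every iFAXLKO library lay below the WT mean and 7 of 8 lay below the lowest WT library, while iFAXLKO replicate 3 at 189 CPM overlapped the WT range. The means were 125 ± 45.3 CPM (n = 8) and 203 ± 25.2 CPM (n = 5), a log2 fold change of -0.69 (SE 0.21). This difference is given with no test because it was among the values by which the genes were chosen. In bulk tissue, fewer cells of a type and less RNA per cell cannot be told apart. The difference in log2 CPM was -0.66 among libraries whose label number was below 300 (4 iFAXLKO, 3 WT) and -0.83 among those above it (4 iFAXLKO, 2 WT). With the fibroblast marker score as a covariate the log2 fold change was -0.51 (SE 0.36), and the part of the marker differences in it was not tested.

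The iFAXLKO libraries were also more spread out for Elovl3 than the WT libraries, with a coefficient of variation of 36.2% against 12.4%. Their values fell into 3 libraries at 168 to 189 CPM and 5 at 72.2 to 112 CPM. The within-group SD of Elovl3 was 0.43 on the log2 scale, larger than that of 89.4% of the 13360 genes tested (median 0.21).

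The other 4 elongases overlapped fully or nearly so between the groups. Elovl6, which takes palmitate to stearate, ranged from 453 to 695 CPM in iFAXLKO (median 553) and stood at 682, 582, 417, 522 and 757 CPM in WT, a log2 fold change of -0.07 (SE 0.14). Elovl5, which elongates polyunsaturated chains, ranged from 83.0 to 168 CPM in iFAXLKO (median 104) and from 92.8 to 115 CPM in WT (log2 fold change 0.06, SE 0.14). Its highest value, 168 CPM in iFAXLKO replicate 7, stood apart from the other 7 at 83.0 to 115 CPM, and without that library the log2 fold change was -0.06. With the fibroblast marker score as a covariate it was -0.24 (SE 0.2). Elovl1, an elongase of very long saturated and monounsaturated chains, had means of 13.2 ± 1.85 CPM in iFAXLKO and 13.2 ± 1.21 CPM in WT, and a log2 fold change of -0.20 (SE 0.15) with that covariate. Elovl4, best known for the very long chains of retina and skin, was close to the filter at 2.82 to 6.94 CPM in iFAXLKO and 3.79 to 6.26 CPM in WT (log2 fold change -0.13, SE 0.19). With the fibroblast marker score as a covariate its sign turned, to 0.51 (SE 0.22).

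Among the desaturases, Fads1 and Fads2 were higher in the libraries labelled iFAXLKO, by a small margin. Fads2 catalyses the entry step of polyunsaturated chain synthesis, the desaturation of linoleic acid, and Fads1 a later step that yields arachidonic acid. Fads1 stood at 17.4, 20.1, 20.4, 18.1, 18.1, 17.3, 22.3 and 21.0 CPM in iFAXLKO and at 16.9, 15.1, 12.6, 17.4 and 14.99 CPM in WT. All 8 iFAXLKO libraries exceeded the WT mean and 6 exceeded the highest WT library, WT replicate 4. The means were 19.4 ± 1.85 and 15.4 ± 1.89 CPM, a log2 fold change of 0.33 (SE 0.09), again given with no test. It was 0.36 among the libraries with lower label numbers and 0.27 among those with higher ones, and 0.18 (SE 0.14) with the fibroblast score as a covariate. Whether the markers that move with it have a part in it was not tested.

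Fads2 stood at 10.5, 10.1, 10.5, 10.7, 11.8, 10.8, 12.2 and 11.0 CPM in iFAXLKO and at 8.98, 9.23, 9.61, 9.99 and 10.01 CPM in WT. The groups did not overlap, although the lowest iFAXLKO library and the highest WT library differed little. The log2 fold change was 0.20 (SE 0.07). Of the 10 members, 1 had ranges that did not overlap with iFAXLKO higher and 0 with iFAXLKO lower. Over all 13360 genes tested, 0.24% had non-overlapping ranges with iFAXLKO higher and 0.195% with iFAXLKO lower. Fads2 was also the steadiest member, with a within-group SD of 0.09 on the log2 scale, which only 3.0% of the genes tested fell under. Fads3, the third gene of the cluster, which has been linked to sphingoid base desaturation, overlapped fully at 13.5 to 23.6 CPM in iFAXLKO and 13.4 to 26.8 CPM in WT (log2 fold change -0.06, SE 0.17).

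The stearoyl-CoA desaturases did not separate by genotype label at all. Scd1, the main source of oleate and palmitoleate in adipose tissue, ranged from 3943 to 15356 CPM in iFAXLKO (median 6758) and stood at 13981, 7826, 2465, 4056 and 11563 CPM in WT. The log2 fold change was -0.01, with an SE of 0.43. Scd2, its paralog, ranged from 99.1 to 352 CPM in iFAXLKO (median 175) and stood at 316, 243, 48.1, 81.2 and 311 CPM in WT (log2 fold change -0.11, SE 0.45). Within WT the highest Scd1 library exceeded the lowest 5.67-fold, and for Scd2 this was 6.57-fold, so a difference near the SE was not detectable with these libraries. Their within-group SDs, 0.83 and 0.89 on the log2 scale, exceeded those of 97.9% and 98.1% of the genes tested.

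**Figure D2:**
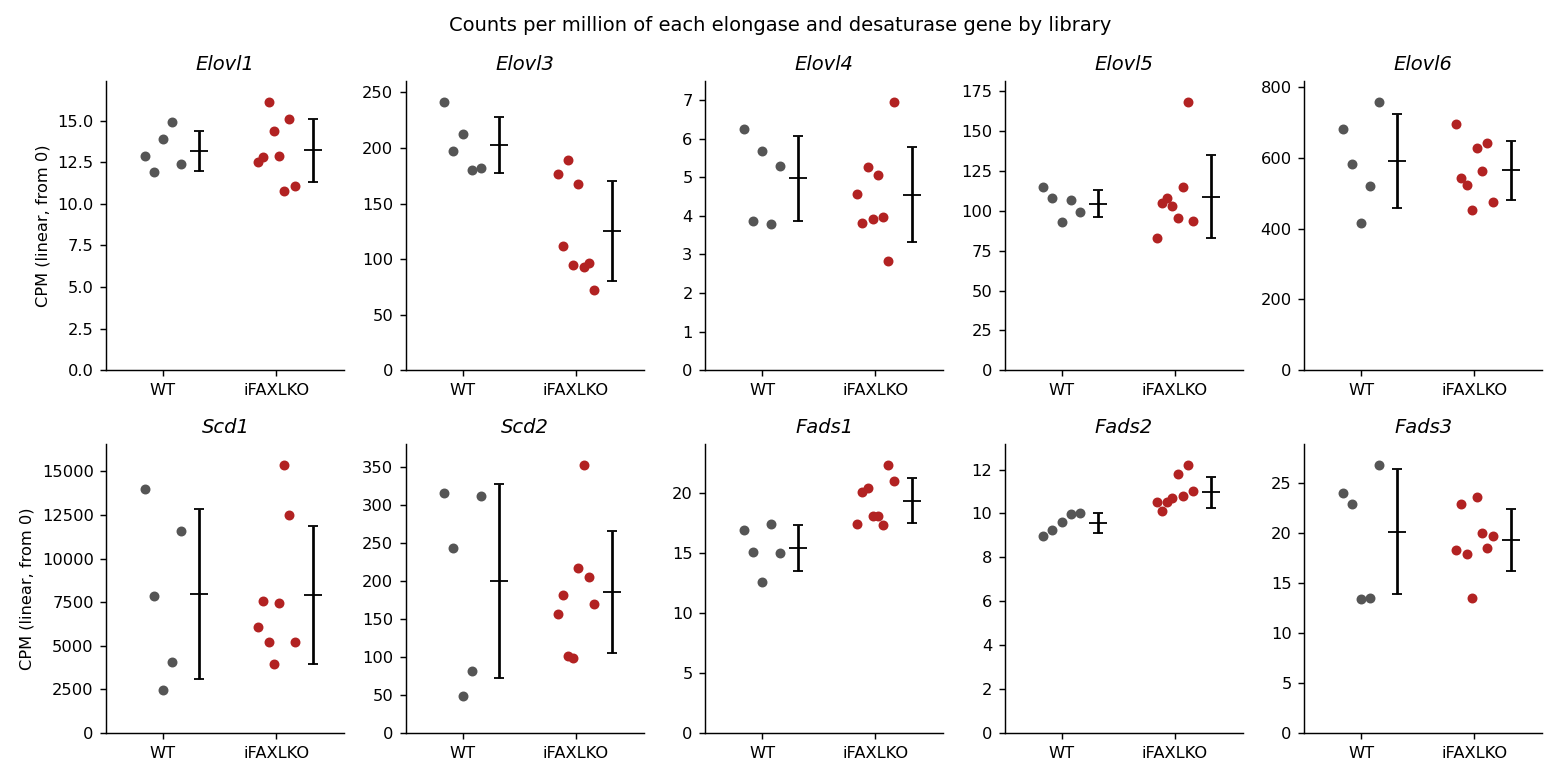
CPM of the 10 genes in every library on linear axes from 0, WT in grey (n = 5) and iFAXLKO in red (n = 8), with the mean and SD beside the points. Elovl3 points are lower in iFAXLKO with 1 library at 189 CPM inside the WT range, Fads2 points do not overlap, and Scd1 and Scd2 spread widely in both groups.

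Across the 10 members, the fitted log2 fold change was positive for 3 and zero or negative for 7, with a median of -0.04 against -0.01 over all genes tested. No member passed an adjusted p of 0.05. Over all genes tested, 17 did, 13 higher and 4 lower in iFAXLKO, which is 0.127% of the genes tested, and 986 genes had an unadjusted p under 0.05. DESeq2 called 67 genes and none of the members.

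**Figure D3:**
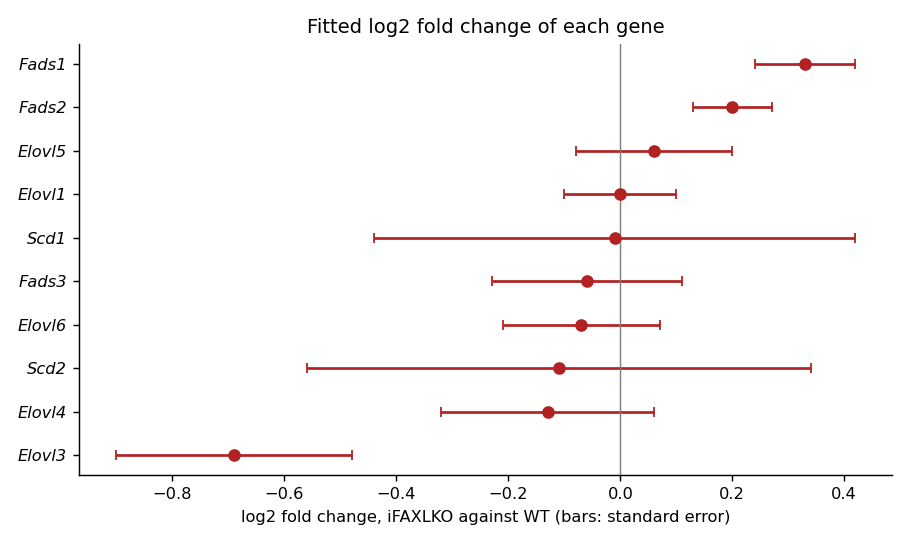
Fitted log2 fold change of each gene, iFAXLKO against WT, with its standard error (edgeR, 13 libraries). Elovl3 lies lowest at -0.69, Fads1 highest at 0.33, and Scd1 and Scd2 have the widest bars.

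The remaining genes of both families were near or under the count filter. Elovl2 had 0 to 7 counts per library, Elovl7 3 to 10, Scd4 0 to 12 and Scd3 1 to 5 in 12 libraries and 42 in WT replicate 3, so all 4 were at most 1.24 CPM. Fads6 was tested, at 2.48 ± 0.673 CPM in iFAXLKO and 2.78 ± 0.583 CPM in WT (log2 fold change -0.17, SE 0.2, adjusted p = 0.913 in edgeR's test).

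The other genes of the pathway, 47 of 54 listed genes tested, gave no call in either direction by edgeR's test with adjustment over all genes, and none by DESeq2. The lowest adjusted p was 0.628, and only Hacd2 had a p under 0.05 before adjustment. Hacd2, a dehydratase of the elongation cycle, stood at 125 ± 20.4 CPM in iFAXLKO and 148 ± 7.59 CPM in WT (log2 fold change -0.25, SE 0.11), lower than the WT mean in 7 of 8 iFAXLKO libraries. Of the 6 elongation partners, 4 had negative and 2 positive values, among them Hacd4 at 0.32 (SE 0.2), Hacd1 at -0.13 (SE 0.15) and Hacd3 at 0.06 (SE 0.1). The 5 tested electron donors had a median log2 fold change of -0.07, from Cyb5a at -0.09 and Cyb5b at -0.08 to Cyb5r4 at 0.05, with Cyb5r1 at -0.07. Cyb5r2 was under the filter.

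The 8 genes that supply or remove malonyl-CoA all had negative values, with a median log2 fold change of -0.2 and none past the limit. Mlycd, which breaks malonyl-CoA down, had -0.19 (SE 0.13, adjusted p = 0.806), Slc25a1, the mitochondrial citrate carrier, -0.34 (SE 0.28), Acly, which cleaves citrate to acetyl-CoA, -0.47 (SE 0.52) and Me1, a source of NADPH, -0.22 (SE 0.27). Of the 7 tested acyl-CoA synthetases and transporters, 5 were negative and 2 positive, including Acsl1 at -0.16 (SE 0.11), Acsl5 at -0.25 (SE 0.21), Slc27a1 at 0.13 (SE 0.12) and Slc27a4 at -0.13 (SE 0.13). The 15 regulators had a median of -0.04. Among them were Insig2 at -0.12 (SE 0.07), Ppara at -0.42 (SE 0.31) and Thrsp at -0.14 (SE 0.25).

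Of the regulators that act on these genes, Srebf1, which encodes the lipogenic transcription factor SREBP, ranged from 100.2 to 392 CPM in iFAXLKO and from 148 to 235 CPM in WT (log2 fold change 0.27, SE 0.28, adjusted p = 0.895 in edgeR's test). Srebf2 was at 0.01 (SE 0.1), Insig1, which retains SREBP in the endoplasmic reticulum, at -0.05 (SE 0.18) and Pparg at -0.04 (SE 0.11). The 5 tested genes of phospholipid acyl remodelling had a median of 0.05, with Lpcat3 at 0.13 (SE 0.08), Agpat3 at -0.11 (SE 0.07), Mboat2 at 0.22 (SE 0.19) and Lclat1 at 0.05 (SE 0.09).

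With genotype means removed, the levels of 4 members were correlated over the 13 libraries, less clearly so within iFAXLKO alone. Group means were subtracted from log2 CPM, and Pearson's r and Spearman's rho were computed over 13 libraries for all 45 member pairs, with 100000 permutations and adjustment over the pairs. The pairs past the limit numbered 6 by Pearson's r and 4 by Spearman's rho, and the 6 were all those among Scd1, Scd2, Elovl6 and Fads3 (heat map of pairwise correlations). Scd1 and Scd2 were the closest pair, with r = 0.94 and rho = 0.96 (adjusted permutation p = 0.00045 for both). With the 2 libraries of most extreme Scd1 level (farthest from its median) set aside, r was 0.90, and it was 0.97 and 0.87 within the lower and higher label numbers. With even coverage the shared windows of Scd1 could yield as many reads as Scd2 had in all. This pair and the other pairs with Scd2 may therefore not be independent of Scd1 reads. Scd3, which shares more windows with Scd1, had far fewer counts than Scd2, and the part of shared reads was not tested.

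Scd2 and Fads3 followed with r = 0.87 and rho = 0.87 (adjusted permutation p = 0.00405 and 0.00675), 0.77 without the 2 farthest libraries, and 0.90 and 0.83 within the label number ranges. Scd1 and Elovl6 had r = 0.77 and rho = 0.77 (adjusted permutation p = 0.0263 and 0.0325), with 0.63 without the 2 farthest libraries and 0.84 and 0.77 within the ranges. Scd1 and Fads3 had r = 0.77 and rho = 0.80 (adjusted permutation p = 0.0263 and 0.0213), with 0.76, and 0.92 and 0.53 in the ranges. Elovl6 with Scd2 (r = 0.76, rho = 0.70) and with Fads3 (r = 0.73, rho = 0.69) passed by Pearson's r (adjusted permutation p = 0.0263 and 0.0399) but not by rho (0.082 for both), and their r fell to 0.55 and 0.54 without the 2 farthest libraries. Over the 8 iFAXLKO libraries alone, given as a description, r was 0.88 for Scd1 with Scd2, 0.63 for Scd2 with Fads3, 0.52 for Scd1 with Elovl6, 0.47 for Scd1 with Fads3 and 0.43 for Elovl6 with both Scd2 and Fads3. All 6 pairs were thus weaker without the 5 WT libraries, the closest pair least so. Leaving out iFAXLKO replicate 4, WT replicate 1, WT replicate 3 or WT replicate 5 left 2 pairs past the limit, Scd1 with Scd2 and Scd2 with Fads3.

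**Figure D4:**
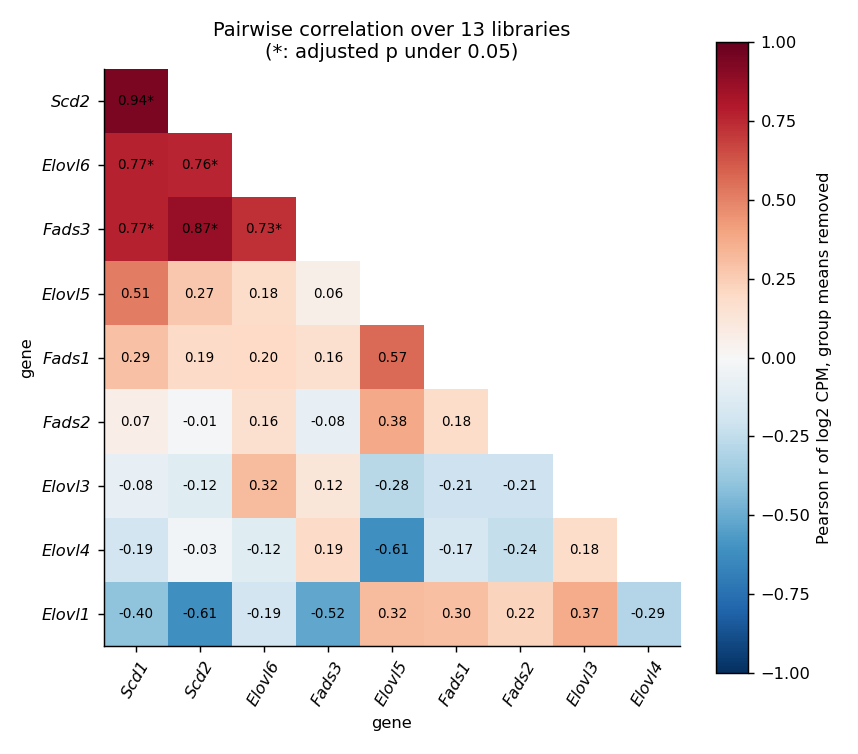
Pearson's r of log2 CPM between each pair of members over 13 libraries after group means were removed, with an asterisk where the adjusted permutation p was under 0.05. The 6 marked pairs, from 0.73 to 0.94, all fall among Scd1, Scd2, Elovl6 and Fads3.

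No pair within the Fads cluster passed the limit, and the values within the label number ranges differed in sign or size. Fads1 and Fads2 had r = 0.18 and rho = 0.13 (adjusted permutation p = 0.76 and 0.942), with -0.77 and 0.46 within the lower and higher label numbers. Fads1 and Fads3 had r = 0.16 and rho = 0.13 (adjusted permutation p = 0.765 and 0.942), with 0.79 and -0.64 within the ranges. Fads2 and Fads3 had r = -0.08 and rho = -0.05 (adjusted permutation p = 0.875 and 0.97), with -0.93 and 0.03. The values near 0 over all libraries thus stand over larger ones within 7 and 6 libraries, except Fads2 with Fads3 among the 6. Elovl3 passed the limit with no other member, and its r lay between -0.28 with Elovl5 and 0.37 with Elovl1.

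The same 4 members also varied with lipogenic genes of malonyl-CoA and acetyl-CoA supply. This set of 80 relations, each member with each of the 8 malonyl-CoA genes, was added after the data had been seen. Of the 80, 28 passed by Pearson's r and 26 by Spearman's rho: 7 each for Scd1 and Scd2, 6 each for Elovl6 and Fads3, 2 for Elovl5 and 0 for the other 5 members by Pearson's r. Fasn, the fatty acid synthase, had r = 0.94 and rho = 0.92 with Scd2 (adjusted permutation p = 0.000356 and 0.00107), and r was 0.87 without the 2 farthest libraries and 0.98 and 0.95 within the ranges. Acly had r = 0.93 and rho = 0.96 with Fads3 (adjusted permutation p = 0.000356 and 0.0008), with 0.88, and 0.94 and 0.93. Acaca, the acetyl-CoA carboxylase that makes malonyl-CoA for synthesis, had r = 0.91 and rho = 0.81 with Elovl6 (adjusted permutation p = 0.000356 and 0.00851), with 0.83, and 0.90 and 0.96. Mlycd ran the other way, with r = -0.80 and rho = -0.77 against Scd1 (adjusted permutation p = 0.00514 and 0.0132), with -0.74, and -0.82 and -0.72.

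WT replicate 3 had the lowest level of Scd1, Scd2, Elovl6, Fads3, Fads1, Slc25a1, Acly, Acss2, Acaca, Fasn and Me1 of all 13 libraries, and the highest level of Mlycd (plot of levels relative to the group mean). WT replicate 5 had the highest level of Elovl6, Fads3, Fasn and Acly. Fasn ranged from 3454 CPM in WT replicate 3 to 18827 CPM in WT replicate 5, both in the same group. Without WT replicate 3, 22 of the 80 relations passed. Of 80 relations of the members with the 8 marker sums, also added later, none passed the adjusted limit. The lowest adjusted permutation p was 0.171, and the strongest by Pearson's r was that of Elovl5 with the Schwann cell sum, at r = 0.71 and rho = 0.68, with 0.75 without the 2 farthest libraries. Close to it were Scd2 with the white adipocyte sum (r = 0.70, rho = 0.64) and Elovl1 with the macrophage sum (r = 0.70, rho = 0.68). By Spearman's rho the strongest was Elovl1 with the white adipocyte sum, at -0.77.

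**Figure D5:**
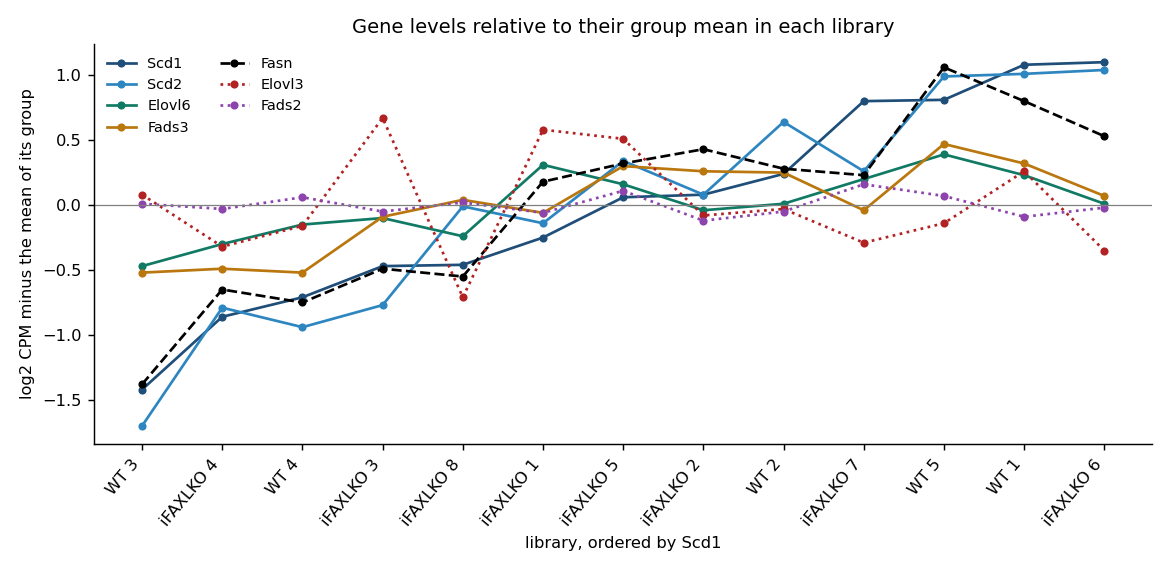
Log2 CPM of 7 genes minus the mean of their group in each library, with libraries ordered by Scd1. Scd1, Scd2 and Fasn run together upward from WT replicate 3 on the left, Elovl6 and Fads3 follow with smaller steps, and Elovl3 and Fads2 (dotted) do not follow the order.

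RefSeq promoter windows (build GRCm38.p6, 250 bases before to 50 after each start) were found for 6 of the 10 members, Elovl1, Elovl4, Elovl5, Elovl6, Fads2 and Fads3. Those of Elovl6 (chr3:129532136-129532435, plus strand) and Fads3 (chr19:10041298-10041597, plus strand) are shown because their levels were correlated over the 13 libraries by Pearson's r (0.73). By Spearman's rho this pair did not pass the adjusted limit. Capitals mark matches on either strand to the CCAAT box (CCAAT) and the GC box (GGGCGG).
Elovl6: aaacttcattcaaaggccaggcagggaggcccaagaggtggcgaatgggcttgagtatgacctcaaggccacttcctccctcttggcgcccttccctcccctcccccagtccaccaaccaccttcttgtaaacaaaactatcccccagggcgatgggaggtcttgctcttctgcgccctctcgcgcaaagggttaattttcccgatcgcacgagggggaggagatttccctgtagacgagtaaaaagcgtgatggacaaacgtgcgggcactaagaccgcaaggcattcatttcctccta
Fads3: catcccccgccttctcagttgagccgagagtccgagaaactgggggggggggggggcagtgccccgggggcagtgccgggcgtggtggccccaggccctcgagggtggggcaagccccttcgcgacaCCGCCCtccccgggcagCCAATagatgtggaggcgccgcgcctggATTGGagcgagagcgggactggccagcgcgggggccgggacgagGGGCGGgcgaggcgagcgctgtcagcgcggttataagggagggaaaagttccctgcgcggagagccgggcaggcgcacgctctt
The Fads3 window held 2 CCAAT and 2 GGGCGG matches and the Elovl6 window none. Of 32851 RefSeq windows of that length, 37.41% held CCAAT and 35.66% GGGCGG. The sterol response element TCACCCCAC was in 0.55% of all windows and in none of the 7 windows of members, which says only that these letters do not occur there.

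The genes whose log2 CPM, with group means removed, was most like that of Elovl3 over the 13 libraries were Tpm4 (r = 0.90), Zfp110 (0.89), Sema3f (0.89), Ubald1 (0.88) and Cdv3 (0.87). For Fads1 they were Rad51d (r = 0.83), Hmgn2 (0.82), Cpxm1 (0.80), Hacl1 (0.79) and Gpc3 (0.78). These are the 5 highest of 13360 genes in each case and are given as a description, from libraries that share depth and composition.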

How the data were processed

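iBAT was sequenced in 13 libraries, and the authors deposited raw read counts per gene for each library (unit: counts). The submitters' processing notes name bcl2fastq 2.20, fastp 0.20.0, STAR 2.7.4a, DESeq2 and GRCm38.p6, while the study's methods describe other tools, and ribosomal RNA depletion in place of the poly-A enrichment in the labels, for its sequencing overall. The counting tool and strand setting are not given in the sources used here. In libraries of 22437277 to 32595083 counts, 3 counts were 0.092 to 0.134 CPM.

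Counts were scaled by TMM. Genes above 1 CPM in at least 5 libraries (13360) were tested with edgeR 4.0.16 (R 4.3.3, quasi-likelihood, robust, 2-sided, Benjamini-Hochberg adjustment). The scripts were tested on simulated counts. Log2 CPM used a prior count of 2. Named genes were all members and family genes, Axl, up to 4 genes of each pathway list with the smallest p, Srebf1, Srebf2, Insig1 and Pparg, and the 5 genes most like Elovl3 and Fads1. Members and lists were chosen with earlier results of these data known. Alternatives were DESeq2 1.42.0, other size factors and filters, covariates, a replicate block and leaving out libraries. None of the 38 pairs of libraries within a group agreed within sampling noise in a chi-square comparison of their counts. Sequences came from GENCODE M21 and RefSeq.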

Additional observations from a re-analysis of the deposited data

Results flagged for a closer look

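Of 30 gene-by-group sets of libraries examined for the 15 elongase and desaturase genes, 3 had 1 library far from the others. The measure was the gap to the next library over the range of the group. A chance rate of about 1 in 20 assumes normally spread values, and several of these genes had few counts. Elovl5 stood at 168 CPM in iFAXLKO replicate 7, against 83.0 to 115 CPM in the other 7 libraries of its group. Scd2 stood at 352 CPM in iFAXLKO replicate 6, against 99.1 to 217 CPM, and WT replicates 1 and 5 reached 316 and 311 CPM. Scd3 stood at 1.24 CPM (42 counts) in WT replicate 3, against 0.0435 to 0.115 CPM in the other WT libraries and at most 5 counts in any other library. Scd1 and Scd2 were at their lowest in that same library, at 2465 and 48.1 CPM. Scd1 and Scd3 share runs of up to 185 transcript bases, so counts of Scd3 this low are uncertain. Scd3 did not rise with Scd1, however. WT replicate 3 had 83653 Scd1 counts, and WT replicate 1 had 426406 Scd1 counts with 3 of Scd3. The cause of the high Scd3 value was not tested.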

How the results depend on the processing

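The number of members called (0) and of pathway genes called (0) held under every alternative run. The number of genes called between the labelled genotypes was 17, and moved to 7 with a replicate block, to 8 with the fibroblast score as a covariate and to 67 with DESeq2, all 17 being among the latter. Leaving out single libraries gave 14 to 19. Replicate numbers did not pair the libraries: their correlations were 0.39, 0.42, 0.19, 0.18 and -0.61 for numbers 1 to 5. The neighbour pairs of levels past the limit numbered 6 throughout, and 7 without WT replicate 3, but the order itself changed in places. With the longest transcript as the length, Elovl5 stood above Scd2 and Elovl1 above Fads3. Elovl5 also stood above Scd2 when certain single libraries were left out, among them iFAXLKO replicate 1 and WT replicate 1. Member pair correlations past the limit ranged from 2 to 6 of 45 when single libraries were left out, and relations with the malonyl-CoA genes from 22 to 31 of 80. The log2 fold change of Elovl3 ranged from -0.80 to -0.61 and that of Fads1 from 0.28 to 0.38 when single libraries were left out, and were -0.49 and 0.30 with the replicate block. Those of Scd1 changed sign in 6 of 13 such fits. With the fibroblast score as a covariate, Elovl4 moved from -0.13 to 0.51 (SE 0.22), Elovl5 from 0.06 to -0.24 (SE 0.2) and Elovl1 from 0.00 to -0.20 (SE 0.15), each by more than the within-group SD, and Scd2 went from -0.11 to 0.50 (SE 0.76), which is less than its SD. The cause was not tested. The limits are 5 WT libraries and the wide spread of Scd1 and Scd2 between mice.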
